A study of Saccharomyces cerevisiae with 24 samples.

Results

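The comparison described here asks what changed in the transcriptome of yeast carrying Sfp1 K655/657Q between 15 and 30 min after glucose was returned to cells held in raffinose. Sfp1 is a zinc-finger transcription factor of ribosome synthesis, and replacing a pair of its lysines with glutamine mimics their acetylated state. The 2 libraries taken at 30 min were set against the 2 taken at 15 min, 4 of the 24 libraries in the series. Every gene with a mean TPM (transcript abundance scaled to one fixed total per library) of at least 1 over all 24 libraries was kept. That left 6363 of 6612 transcripts, some of them with a lower mean in the 4 libraries compared. The K655/657Q strain is labelled SFP1-K655Q-K657Q-MYC::KanMX with can1-100, ura3-1, trp1-1, leu2-3,112, his3-11,15 and ade2-1, and the WT strain carries SFP1-MYC::KanMX in the same background, so both express a MYC-tagged Sfp1. Each genotype is a single constructed strain. The cell line is labelled LPY, and the strain table of the study gives the parent of these tagged strains other alleles of HIS3, TRP1 and URA3 and none of ADE2 or CAN1, so the labelled background is in doubt. Cultures grown in YPD were washed, moved to medium with 2% raffinose as the only carbon source and then given glucose to 2%, and the same strain was also sampled in raffinose and in YPD. Nothing in the labels says that replicates came from separate cultures, so p-values here measure a spread between replicate libraries that may be technical. That spread was pooled over 23 libraries of the series, not only those compared. The pool includes the K655/657R strain, labelled SFP1-K655R-K657R-MYC.

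Glucose is the preferred carbon source of Saccharomyces cerevisiae. When it returns, Ras/PKA and TORC1 signalling raise ribosome production, glucose repression shuts off genes for respiration and for other carbon sources, and the Msn2/Msn4 stress program is switched off. Sfp1 acts with this signalling, binding ribosomal protein (RP) genes and genes of ribosome biogenesis (RiBi). The step between 15 and 30 min is the later part of that response, in which an mRNA may continue its first change or return from a peak.

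RNA was measured as poly(A) libraries and deposited as TPM, which keep no read depth, so the counting error of each value is unknown. The values below are TPM divided by a per-library size factor (1.14 and 1.09 at 30 min, 1.05 and 1.02 at 15 min) and are called scaled TPM. The root mean square of the difference between replicates, in log2 units over genes, was 0.164 for 30 min and 0.214 for 15 min. SFP1 itself (chromosome XII) had 18.6 and 18.0 scaled TPM at 30 min and 18.3 and 18.6 at 15 min. All 6 markers of a-type cells were detected, led by MFA2 at 15750 and 19340 scaled TPM at 30 min and 12390 and 13060 at 15 min, while the 4 markers of alpha-type cells lay between 5.22 and 15.6 in these 4 libraries. HIS3 and TRP1 were listed at 0 in all 4, and which alleles these strains carry there is in doubt, as above. Change between the times followed coding length across 5798 genes with a Spearman correlation of 0.226 (longer genes higher at 30 min), against 0.0209 for the same step in WT, and between replicates the correlation was -0.186 at 30 min and 0.02 at 15 min. Its part in the results was not tested.

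In all, 543 genes (8.53% of those tested) differed between 30 and 15 min, of which 136 were higher and 407 lower at 30 min. A call took a change of 1.5-fold or more together with a p from limma that stayed under 0.05 after Benjamini-Hochberg adjustment. The background for every count below is therefore 2.14% of tested genes called higher and 6.40% called lower. In counts over lists, rose and fell mean called higher and called lower. At 1.5-fold the calls are a subset of 1946 genes with an adjusted p under 0.05, and 217 genes moved by more than 2-fold, 196 of them downward. The balance of calls depends on the scaling, which set 301 genes higher and 309 lower under upper-quartile scaling, 305 and 312 under ACT1 scaling, and 238 and 339 on TPM as deposited, where the median of all genes lay at 0.14, 0.13 and 0.09 on the log2 scale instead of -0.00. Directions below are relative to that median.

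**Figure D1:**
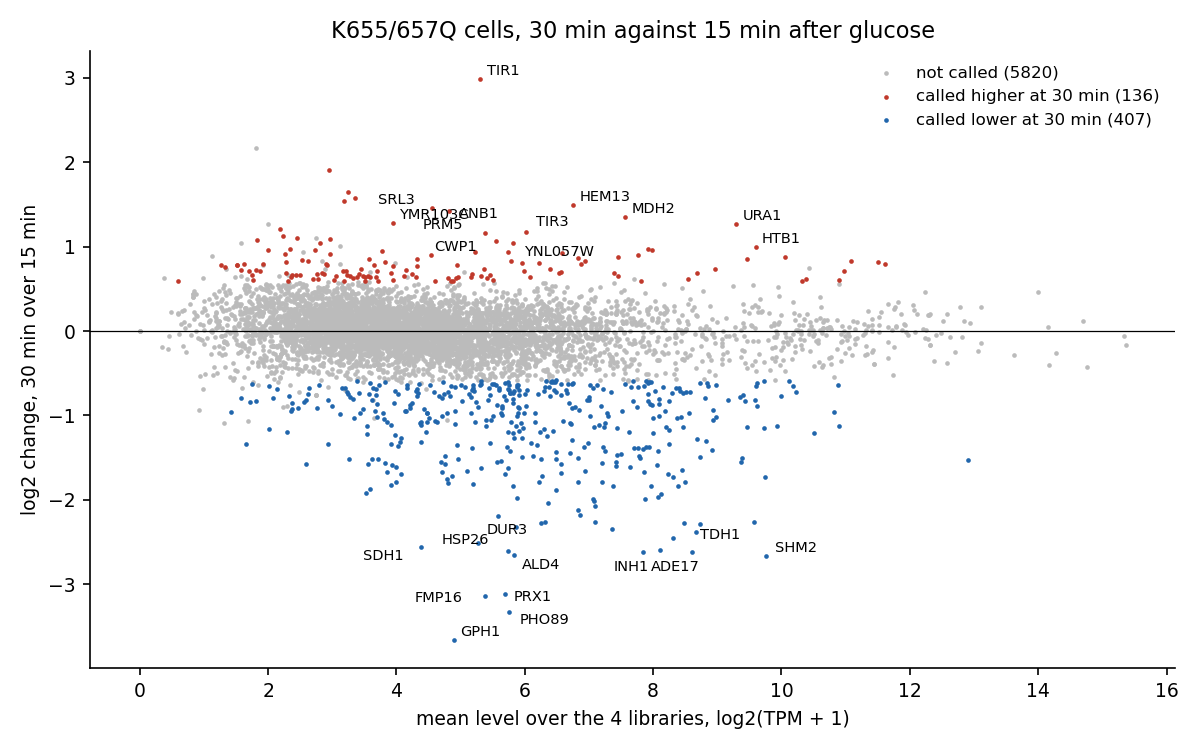
Log2 change between 30 and 15 min (y axis) against mean level over the 4 K655/657Q libraries (x axis, log2 of TPM plus 1) for 6363 genes. The 407 genes called lower reach down to GPH1 at -3.66, while of the called genes only TIR1, at 2.99, rose beyond 2.

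The largest called fall was that of GPH1, the glycogen phosphorylase that releases glucose from stored glycogen (chromosome XVI, 861306 to 864014). It had 2.93 and 3.48 scaled TPM at 30 min, against 50.2 and 53.8 at 15 min, a log2 change of -3.66 (standard error 0.15, adjusted p = 1e-10). In raffinose the strain had 131.6 and 126.7, so the 2 times after glucose are steps of one decline. Its list of trehalose and glycogen genes did not move as a block. Of 20 members, GPH1 and the glycogen synthase GSY1 fell, and GAC1, a regulatory subunit of the phosphatase that acts on glycogen synthase, and TPS1, which makes trehalose phosphate, rose, with a list median of 0.03. GSY1 and GAC1 lay under 3 scaled TPM at both times, and with a pseudocount of 5 neither was called (log2 change -0.32 and 0.28).

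Respiration gave the most uniform fall. Of 36 nuclear genes for respiratory chain complexes and ATP synthase, 33 were called lower and none higher, with a median of -1.29 beside -0.00 over all genes. QCR10, a small subunit of the cytochrome bc1 complex, stood at 136.3 and 138.1 scaled TPM at 30 min and at 659.7 and 682.2 at 15 min (log2 change -2.28). ATP19, a small ATP synthase subunit, had 140.6 and 108.5 at 30 min and 669.0 and 627.1 at 15 min (-2.38). COX4, a subunit of cytochrome c oxidase, had 85.9 and 91.5 at 30 min and 342.4 and 367.5 at 15 min (-1.99). The libraries of the 2 times do not overlap for any of these 3 genes, as for 66.6% of all genes tested. INH1, which inhibits the hydrolytic activity of ATP synthase, is not in the list and fell with it, at 76.5 and 69.9 at 30 min and 430.9 and 465.9 at 15 min (-2.60). The mean level of the list, as log2 of scaled TPM plus 1, was 9.22 and 9.24 in raffinose, 7.77 and 7.83 at 15 min, 6.51 and 6.57 at 30 min and 8.16 and 8.19 in YPD, so that 30 min was the lowest of the 4 conditions. List members are short, and among 3875 other genes in the same range of coding length, 180 to 1683 bases, the median was -0.03 and 7.12% were called lower. These other genes were not matched for level, and the part of length in the fall was not tested.

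Of 20 genes of the tricarboxylic acid cycle, 11 were called lower and none higher (median -0.65). SDH1, the flavoprotein of succinate dehydrogenase (chromosome XI, 169207 to 171129), had 4.90 and 4.70 scaled TPM at 30 min, against 32.2 and 34.3 at 15 min, and its log2 change was -2.56. Its membrane anchor SDH4 had 43.2 and 46.6 at 30 min and 123.0 and 123.1 at 15 min (-1.44), and the citrate synthase CIT1 had 10.1 and 10.5 at 30 min and 27.1 and 27.0 at 15 min (-1.32). In raffinose SDH1 had stood at 347.8 and 327.1. Mitochondrial ribosomal protein genes had 1 of 56 called lower (MRPL44, -0.67), but 55 lay below 0, and the median was -0.22.

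Among 19 glycolytic genes 4 fell and 1 rose, with a median of 0.01. TDH1, a minor glyceraldehyde-3-phosphate dehydrogenase, had 91.0 and 116.3 scaled TPM at 30 min and 599.6 and 670.9 at 15 min (log2 change -2.61). Of its 31-base words, 26.3% occur in another coding sequence, so its level may borrow from its paralogs. The glucokinase GLK1 had 21.2 and 23.7 at 30 min and 78.7 and 86.9 at 15 min (-1.84), and the hexokinase HXK1 had 5.62 and 5.30 at 30 min and 16.6 and 18.4 at 15 min (-1.51). Both belong to the sugar kinases that glucose represses. The enolase ENO1 fell too (-0.89, with 38.8% of its words shared), and PFK26, which makes an activator of phosphofructokinase, rose (0.79). PFK26 was low, with 3.5 and 3.4 at 30 min and 1.6 and 1.5 at 15 min, and with a pseudocount of 5 its change lies under 1.5-fold. Among 10 fermentation genes 3 fell, led by the mitochondrial aldehyde dehydrogenase ALD4 with 13.4 and 14.3 at 30 min and 95.2 and 89.9 at 15 min (-2.65). ADH3 fell by 0.67 and ALD6 fell by 0.82, although without any one of the 4 libraries ALD6 was not called (adjusted p between 0.07 and 0.13). Of 17 hexose transporter and sensor genes 2 fell. HXT1, the low-affinity transporter induced by high glucose, had 30.3 and 30.4 at 30 min and 67.9 and 81.8 at 15 min (-1.27). HXT7 was -0.76, but 95.7% of its 31-base words are shared with other coding sequences, and its value is uncertain.

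Genes of gluconeogenesis, the glyoxylate cycle and alternative carbon sources went both ways, 2 higher and 4 lower of 36, median 0.05. PCK1, phosphoenolpyruvate carboxykinase, had 6.98 and 5.99 scaled TPM at 30 min and 20.9 and 22.9 at 15 min (log2 change -1.61), and the pyruvate carboxylase PYC1 fell by 1.31 on the log2 scale. MDH2, the cytosolic malate dehydrogenase, moved the other way (chromosome XV, 81787 to 82920). It had 249.4 and 244.2 at 30 min and 91.9 and 101.2 at 15 min (log2 change 1.35, standard error 0.1, adjusted p = 3.5e-08). Its raffinose level was 169.5 and 151.4, between the 2. The list of 24 regulators of glucose signalling and repression had 1 call, ADR1, an activator of genes for non-fermentable carbon sources, with 5.97 and 5.88 at 30 min and 2.92 and 2.83 at 15 min (0.84). At such low levels the change depends on the pseudocount, and with one of 5 it lies under 1.5-fold. In raffinose ADR1 had 42.9 and 36.0, far above both times. None of 15 peroxisomal fatty acid oxidation genes was called, and the largest changes were -0.25 (FAA2) and 0.25 (PXA1).

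**Figure D2:**
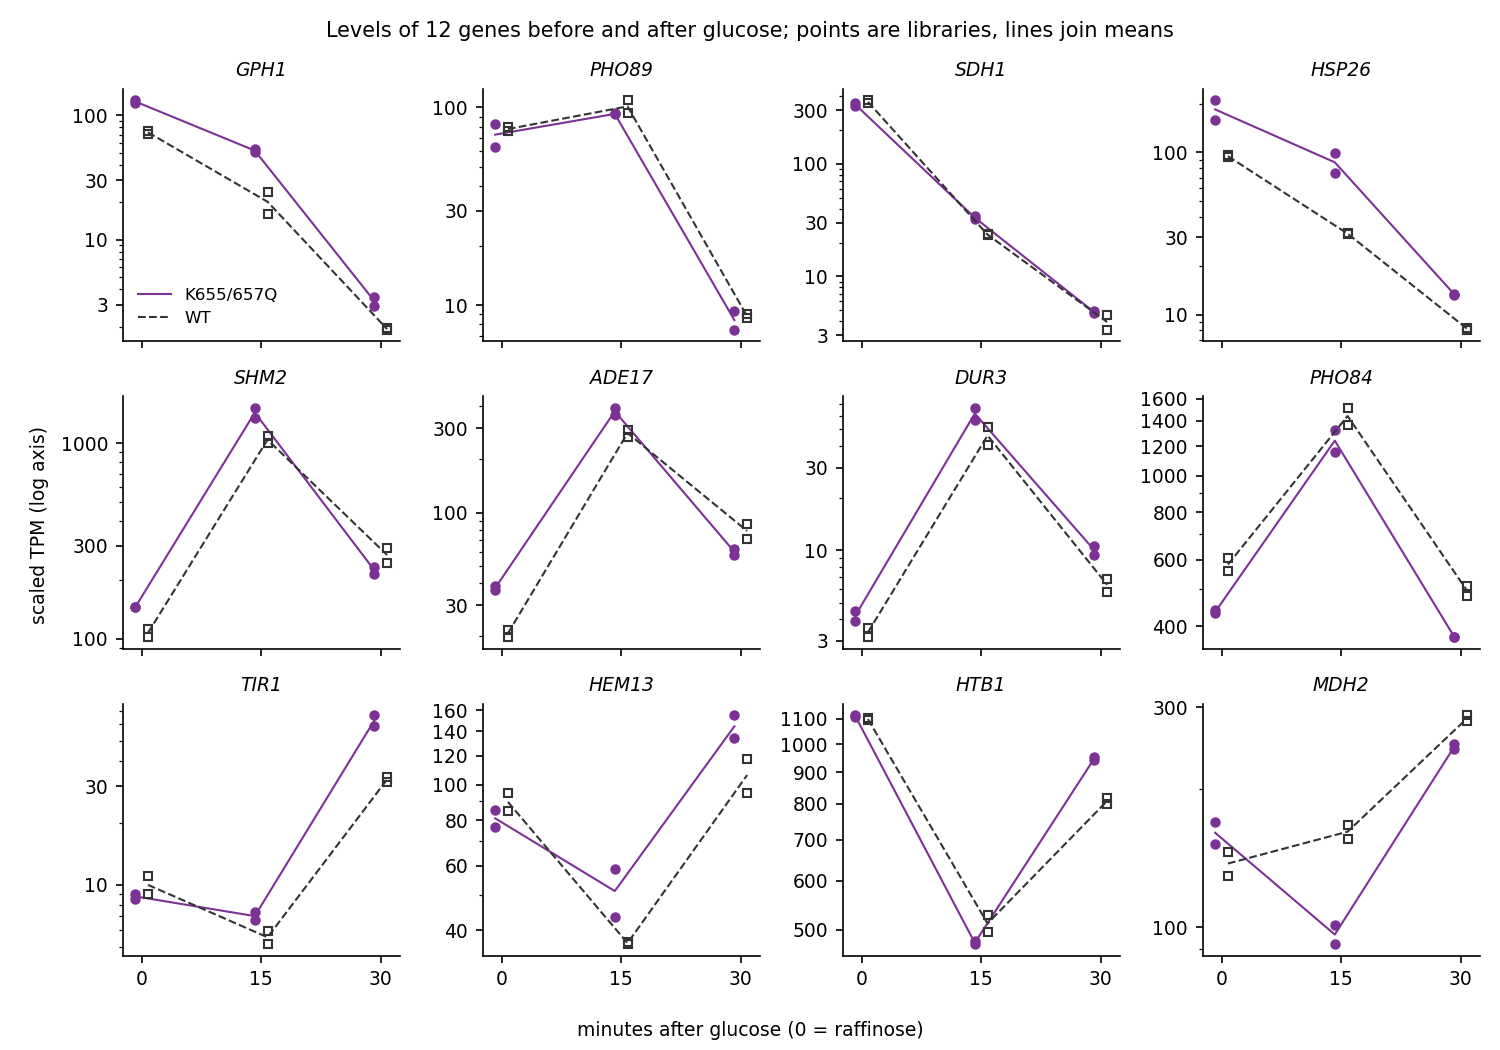
Scaled TPM (log axis) of 12 genes in raffinose (0) and at 15 and 30 min after glucose, with K655/657Q as filled circles and solid lines and WT as open squares and dashed lines. GPH1, SDH1 and HSP26 decline at each step, SHM2, ADE17, DUR3 and PHO84 are highest at 15 min, and TIR1, HEM13, HTB1 and MDH2 are lowest at 15 min in K655/657Q.

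General stress genes of the Msn2/Msn4 type fell in 22 of 43 cases and rose in 1, MSN4 itself, which encodes one of the 2 activators (median -0.65). HSP26, a small heat shock protein (chromosome II, 382030 to 382674), had 13.2 and 13.4 scaled TPM at 30 min, against 74.9 and 98.8 at 15 min (log2 change -2.60). TFS1, an inhibitor of carboxypeptidase Y, had 17.2 and 17.6 at 30 min and 87.8 and 94.9 at 15 min (-2.33). HSP12, a membrane-associated stress protein, had 48.0 and 52.4 at 30 min and 258.7 and 261.1 at 15 min (-2.35, standard error 0.55). Outside the list, PRX1, a mitochondrial peroxiredoxin, and FMP16, which encodes a mitochondrial protein, were among the largest falls too. PRX1 had 8.98 and 9.51 at 30 min and 84.3 and 92.0 at 15 min (-3.12), and FMP16 had 7.69 and 6.62 at 30 min and 65.7 and 75.7 at 15 min (-3.14).

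Chaperone genes of the heat shock response, in a list that leaves out HSP26, went mostly the opposite way. Of 30, 11 rose and 2 fell, with a median of 0.33, and the 11 include both HSP90 genes, HSP104 and the cytosolic HSP70 genes SSA1 and SSA2. SSA1 had 209.4 and 204.9 scaled TPM at 30 min and 104.9 and 119.9 at 15 min (log2 change 0.88), with 63.6% of its 31-base words shared with other coding sequences. CUR1, a sorting factor for misfolded proteins, had 16.0 and 15.5 at 30 min and 8.11 and 7.21 at 15 min (0.95). SSA4, an inducible HSP70 gene, fell (-0.65). HSP30, a plasma membrane protein, was -0.93 and lost its call without either of 2 libraries (30 min replicate 1, -0.87, adjusted p = 0.061, and 15 min replicate 2, -0.71, adjusted p = 0.1). The endoplasmic reticulum chaperone KAR2, in a list of 21 tubulin, actin and secretory genes with no other call, lay at the threshold (0.59), and without replicate 1 of either time it fell under 1.5-fold (0.56 and 0.52).

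Purine and one-carbon genes peaked at 15 min. The pathway builds inosine monophosphate from ribose phosphate, glycine and one-carbon units, and Bas1 with Pho2 activates most of its genes when adenine nucleotides are short. Of 32 members 18 were called lower and none higher (median -0.90). SHM2, the cytosolic serine hydroxymethyltransferase (chromosome XII, 257992 to 259401), had 215.2 and 233.4 scaled TPM at 30 min and 1348 and 1517 at 15 min (log2 change -2.67, standard error 0.1, adjusted p = 6e-11), and in raffinose it had only 144.8 and 145.2. ADE17, which catalyses the last steps to inosine monophosphate, had 57.3 and 62.7 at 30 min and 356.0 and 391.4 at 15 min (-2.62), with 36.4 and 38.5 in raffinose. ADE2, phosphoribosylaminoimidazole carboxylase, had 39.5 and 38.5 at 30 min and 177.2 and 182.4 at 15 min (-2.18), and whether the strains carry the labelled ade2-1 is in doubt. Other calls reached -2.07 in ADE4, the first committed enzyme, and -2.01 in MTD1, a one-carbon enzyme. The list mean, on the log2 scale, was 5.73 and 5.74 in raffinose, 7.22 and 7.30 at 15 min, 6.27 and 6.33 at 30 min and 6.60 and 6.67 in YPD.

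The upstream regions of these genes are shown because the group moved together and shares a short motif. TGACTC, the letters Bas1 recognises and also the core of the Gcn4 site, was searched on both strands from 100 to 500 bases upstream of the start codon. It was present in 18 of 18 purine and one-carbon genes that fell, in 20 of the 32 listed, in 20.6% of all genes called lower and in 11.0% of 5796 tested genes with such a window. Members of the list were collected as pathway genes, many of them known Bas1 targets, so the share describes the list. The stretches below (R64 build, RefSeq sequence, 5′ to 3′ on the gene's strand) each hold a match in capitals.
SHM2, chrXII:259598-259653, reverse strand: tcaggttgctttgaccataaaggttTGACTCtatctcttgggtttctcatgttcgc
ADE17, chrXIII:509427-509482, reverse strand: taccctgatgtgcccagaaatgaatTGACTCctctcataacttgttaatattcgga
ADE4, chrXIII:867418-867473, reverse strand: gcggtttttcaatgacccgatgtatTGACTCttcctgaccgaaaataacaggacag
MTD1, chrXI:590196-590251, forward strand: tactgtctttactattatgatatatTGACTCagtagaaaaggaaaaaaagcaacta

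Phosphate genes, which Pho4 activates when phosphate is limiting, had 8 of 23 lower and none higher (median -0.36). PHO89, a sodium-phosphate cotransporter (chromosome II, 796798 to 798522), had 9.29 and 7.49 scaled TPM at 30 min, against 93.2 and 92.4 at 15 min (log2 change -3.33). SPL2, which helps to downregulate the low-affinity phosphate transporter, had 14.3 and 14.6 at 30 min and 54.5 and 51.7 at 15 min (-1.81). PHO84, the high-affinity transporter, had 374.3 and 373.8 at 30 min and 1154 and 1327 at 15 min (-1.72). Its raffinose level of 432.0 and 440.1 lay under that at 15 min and above that at 30 min. The letters CACGTG, bound by Pho4 and also by Cbf1, were found in the same window in 7 of the 8 genes that fell, in 14 of the 23 listed and in 5.75% of all tested genes. A stretch of 56 bases around 1 match is printed for each of these 3 genes, with matches in capitals. That of PHO84 holds both of its matches, and the second match of SPL2 lies outside its stretch.
PHO89, chrII:798815-798870, reverse strand: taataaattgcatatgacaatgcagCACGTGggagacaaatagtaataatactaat
SPL2, chrVIII:375217-375272, reverse strand: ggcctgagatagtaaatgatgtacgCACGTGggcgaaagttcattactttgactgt
PHO84, chrXIII:26184-26239, reverse strand: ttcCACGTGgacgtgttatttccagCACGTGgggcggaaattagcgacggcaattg

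Nitrogen genes fell as well. Of 24 genes under nitrogen catabolite repression, which GATA factors activate when preferred nitrogen sources run short, 10 were called lower and none higher (median -0.38). DUR3, a urea and polyamine transporter, had 9.44 and 10.6 scaled TPM at 30 min and 56.9 and 66.7 at 15 min (log2 change -2.51), with 4.49 and 3.89 in raffinose. DUR1,2, which degrades urea, had 14.7 and 16.1 at 30 min and 69.4 and 79.0 at 15 min (-2.19), and the general amino acid permease GAP1 had 23.8 and 26.4 at 30 min and 112.6 and 136.0 at 15 min (-2.26). Ammonium assimilation, a list that shares members with the last, had 6 of 13 lower (median -0.53), among them the ammonium permeases MEP2 (-1.38) and MEP1 (-1.08) and the glutamate dehydrogenase GDH1, with 151.9 and 170.3 at 30 min and 391.6 and 426.8 at 15 min (-1.34). Amino acid permeases and related transporters were mixed, 2 higher and 5 lower of 19, with AGP1 at -1.42 and HIP1 at -0.70.

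Lists of amino acid synthesis differed in their counts of calls, and the difference between lists was not tested. Sulfate assimilation and methionine genes had 12 of 31 lower and none higher (median -0.35). MET17, the O-acetylhomoserine sulfhydrylase that fixes sulfide, had 22.1 and 25.3 scaled TPM at 30 min and 102.1 and 136.5 at 15 min (log2 change -2.27). SAM2, which makes S-adenosylmethionine, was at -1.99 and the methionine synthase MET6 at -1.98. Arginine genes had 6 of 16 lower (median -0.46), with ARG1 at 214.8 and 235.9 at 30 min and 514.4 and 584.5 at 15 min (-1.28), ARG3 at -1.10 and CPA1 at -1.01. HIS4 was the only call of 6 histidine genes (-0.97), and BAT2 the only one of 13 branched-chain genes (-0.61), losing its call on TPM as deposited (-0.51) and without 30 min replicate 1 (-0.56) or 15 min replicate 2 (-0.55). No gene was called of 10 in the lysine list, where LYS9 stood at 0.57 and LYS12 at 0.47, or of 15 in the aromatic list, where ARO9 stood at -0.38 and ARO2 at 0.27.

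Iron and copper uptake genes had 11 of 31 lower and none higher (median -0.42). FIT2, a cell wall mannoprotein that retains siderophore iron, had 112.2 and 119.5 scaled TPM at 30 min and 562.0 and 565.3 at 15 min (log2 change -2.27). The siderophore transporter SIT1 had 53.9 and 41.5 at 30 min and 161.1 and 171.8 at 15 min (-1.79), and TIS11, which degrades mRNAs of iron-using proteins, was at -1.51. Of 24 thiamine and vitamin B6 genes 5 fell, led by SNZ1 (-0.97). SNZ2 and SNZ3 (-0.64 and -0.67) share 84.0% of their 31-base words with other coding sequences and cannot be separated. Of 24 genes of fatty acid and phospholipid synthesis 2 fell, OPI3, a phospholipid methyltransferase, with 118.2 and 131.6 at 30 min and 359.6 and 395.9 at 15 min (-1.59), and the inositol transporter ITR1 (-0.67).

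The largest called rise was that of TIR1, a cell wall mannoprotein (chromosome V, 175248 to 176012). It had 59.0 and 66.6 scaled TPM at 30 min and 7.32 and 6.74 at 15 min, a log2 change of 2.99 (standard error 0.14, adjusted p = 5.2e-10), and its levels were 8.49 and 9.04 in raffinose and 117.1 and 111.6 in YPD. In the cell wall list 4 of 35 genes rose and 1 fell (median 0.20). TIR3, of the same family, had 79.5 and 82.8 at 30 min and 34.2 and 36.7 at 15 min (1.17), and CWP1, another wall mannoprotein, had 57.8 and 57.3 at 30 min and 28.1 and 25.8 at 15 min (1.07). Outside the list, PRM5, induced by cell wall integrity signalling, had 51.7 and 52.5 at 30 min and 21.9 and 23.8 at 15 min (1.16).

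TIR1 and TIR3 are known for expression under low oxygen, and so are HEM13 and ANB1, which were among the 12 largest rises at a mean TPM of at least 10. HEM13, coproporphyrinogen oxidase of heme synthesis, had 133.9 and 155.0 scaled TPM at 30 min and 43.5 and 58.8 at 15 min (log2 change 1.49). ANB1, the low-oxygen form of translation factor eIF5A, had 32.1 and 41.1 at 30 min and 11.8 and 14.3 at 15 min (1.42). A list of low-oxygen genes was written after these values were seen. Of its 23 tested members 5 rose, ERG5 included, and 3 fell, namely COX5B, CYC7 and OYE3, and the median was 0.35. The stretches are shown to place the letters ATTGTT, the core that the low-oxygen repressor Rox1 recognises, upstream of the genes that rose. They were in 5 of 5 risen members, 1 of 3 fallen members and 17 of 23 listed, but also in 50.0% of all genes called higher and in 39.9% of all tested genes. Capitals mark matches on either strand.
TIR1, chrV:174887-174942, forward strand: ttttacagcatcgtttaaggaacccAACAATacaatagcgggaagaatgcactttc
HEM13, chrIV:546435-546490, forward strand: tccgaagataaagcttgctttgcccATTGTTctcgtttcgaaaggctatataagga
ANB1, chrX:525544-525599, reverse strand: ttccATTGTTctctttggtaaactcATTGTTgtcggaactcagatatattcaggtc

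URA1, dihydroorotate dehydrogenase of pyrimidine synthesis, was the only call of 10 pyrimidine genes. It had 794.1 and 827.4 scaled TPM at 30 min and 322.3 and 353.0 at 15 min (log2 change 1.26), while the list median was 0.08. SRL3 (1.46) and the reading frames YMR103C (1.28) and YNL057W (1.04) were also among the 12 largest rises. YNL057W lost its call with all 24 libraries fitted (limma adjusted p = 0.25). It is absent from the reference annotation, so its shared words were not counted. YMR103C lies close to YPK2 on the same strand, which rose too (1.20). SRL3 had 30.2 and 31.2 at 30 min and 10.5 and 10.6 at 15 min. Of 26 ergosterol genes only ERG5 rose (0.93), at 111.2 and 118.2 at 30 min and 58.2 and 61.5 at 15 min, with a list median of 0.28. The Ras and PKA list had 3 of 22 higher, among them adenylate cyclase CYR1, which makes cyclic AMP (0.66), and the kinase subunit TPK2 (0.74), both with means under 12 scaled TPM and neither called with a pseudocount of 5 (0.36 and 0.52). TPK2 is also among the 2 calls, both higher, of 20 regulators of ribosomal and assembly genes. ATG7 was the 1 call of 24 autophagy genes (0.96, or 0.45 and not called with a pseudocount of 5).

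Cell cycle lists changed in opposite directions. Histone genes, made in S phase, rose in 6 of 10 cases and none fell (median 0.60). HTB1 had 943.2 and 953.9 scaled TPM at 30 min and 472.9 and 478.5 at 15 min (log2 change 0.99, adjusted p = 1.7e-07), and HTA1 had 1217 and 1316 at 30 min and 661.9 and 716.7 at 15 min (0.88). HHF1 (0.72) shares 40.8% of its 31-base words and was not called without 15 min replicate 2 (0.56). Yeast histone mRNAs carry little poly(A), and these are poly(A) libraries, so their level need not follow the total. G1 cyclin and G1/S genes, expressed just before, were called lower in 7 of 30 cases and higher in none (median -0.23). RNR1, the large ribonucleotide reductase subunit, had 138.8 and 140.4 at 30 min and 243.8 and 278.4 at 15 min (-0.90), the S-phase cyclin CLB6 had 4.80 and 4.29 at 30 min and 10.8 and 9.17 at 15 min (-0.99), and the repressor YOX1 was at -0.92. None of 19 G2/M genes was called, although the median was 0.27, with BUD8 at 0.58 and HOF1 at 0.53. Of 18 M/G1 and daughter cell genes PST1 rose (0.68) and the daughter-specific wall enzymes SCW11 (-0.83) and DSE2 (-0.80) fell.

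Genes of ribosome assembly had few calls between these times. None of 61 small subunit processome genes was called, with UTP22 at -0.52 and UTP5 at -0.49, and 1 of 86 pre-60S assembly factors was, BUD20 (-0.62), which lost its call on TPM as deposited (-0.52) and without 30 min replicate 2 (-0.55, adjusted p = 0.063) or 15 min replicate 1 (-0.41, adjusted p = 0.1). Their medians were -0.19 and -0.21, and 58 of the 61 and 79 of the 86 lay below 0. At a limma adjusted p under 0.05 and any fold, 24 and 28 were lower and 0 and 1 higher. In WT 60 and 81 lay below 0. Of 20 core snoRNP proteins NSR1, a nucleolin homologue, fell (-0.71), with 243.2 and 242.5 scaled TPM at 30 min and 383.8 and 412.4 at 15 min. NOB1, HAS1, NUG1, RPF2 and NSA1, the RiBi genes followed by the study, had log2 changes of -0.17, -0.22, -0.01, -0.17 and -0.10, none of them called. HAS1, for one, had 63.4 and 62.3 at 30 min and 71.0 and 76.1 at 15 min, above its raffinose level of 35.7 and 33.4 at both times. No gene was called of 18 for RNA polymerase I (RPA135 -0.42, RRN11 -0.31), 20 for RNA polymerase III (RPC37 -0.39, TFC4 0.30), 21 tRNA synthetases (TYS1 0.39, WRS1 0.37), 29 for the RNA exosome and decay (AIR1 -0.36, CCR4 0.26) or 35 for the proteasome, where RPN12 stood at 0.56, PRE4 at 0.46 and the median at 0.24. Translation factors had ANB1 and TEF4 (0.68), an elongation factor subunit, higher of 40.

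RP genes had a median change near 0 and were uneven among themselves. Of 137, none was called higher and 12 were called lower (8.76%, against 6.40% of all tested genes). By direction alone, 58 lay above 0. The median was -0.04, or between 0.06 and 0.11 under the other scalings. RPL2B had 2663 and 2794 scaled TPM at 30 min and 2704 and 2798 at 15 min (log2 change -0.01), and RPS11B had 1524 and 1691 at 30 min and 1494 and 1614 at 15 min (0.05). RP transcripts took 33.2% and 33.3% of deposited TPM at 30 min and 32.8% and 31.7% at 15 min.

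All 12 RP genes that fell belong to paralog pairs, as 114 of the 137 RP genes do, and each is the copy with the lower level in raffinose. RPS9A had 59.3 and 64.2 scaled TPM at 30 min and 215.4 and 215.6 at 15 min (log2 change -1.79, standard error 0.07, adjusted p = 9.4e-11), while its partner RPS9B averaged 1626 at 30 min and 1481 at 15 min (0.14). The share of RPS9A in the pair was thus 3.66% at 30 min and 12.7% at 15 min. RPL22B had 74.1 and 85.2 at 30 min and 226.8 and 258.7 at 15 min (-1.60), with RPL22A at 0.20. RPL7B had 60.9 and 64.9 at 30 min and 166.3 and 163.8 at 15 min (-1.38), with RPL7A at 0.29, and RPL8A was at -1.38 with RPL8B at 0.35. Also called were RPL18B (-1.15), RPS14B (-1.06), RPL9B (-0.83), RPL27B (-0.77), RPS24B (-0.65), RPL12A (-0.65), RPS27A (-0.64) and RPL14B (-0.59), and none of the 12 partners was. The called copies shared between 0.00% and 65.0% of their 31-base words with other coding sequences, with RPL22B and RPS27A at 0.00%. Whether reads were split between copies was not tested. Of the 12, 9 have more than 1 coding exon, against 89 of all 137. Over 57 pairs, ordered by the raffinose libraries that this comparison does not use, the lower copy had the lower change in 43, with medians of -0.18 for lower copies and 0.01 for higher copies. In WT the lower copy had the lower change in 46 pairs, with medians of 0.17 and 0.33.

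**Figure D3:**
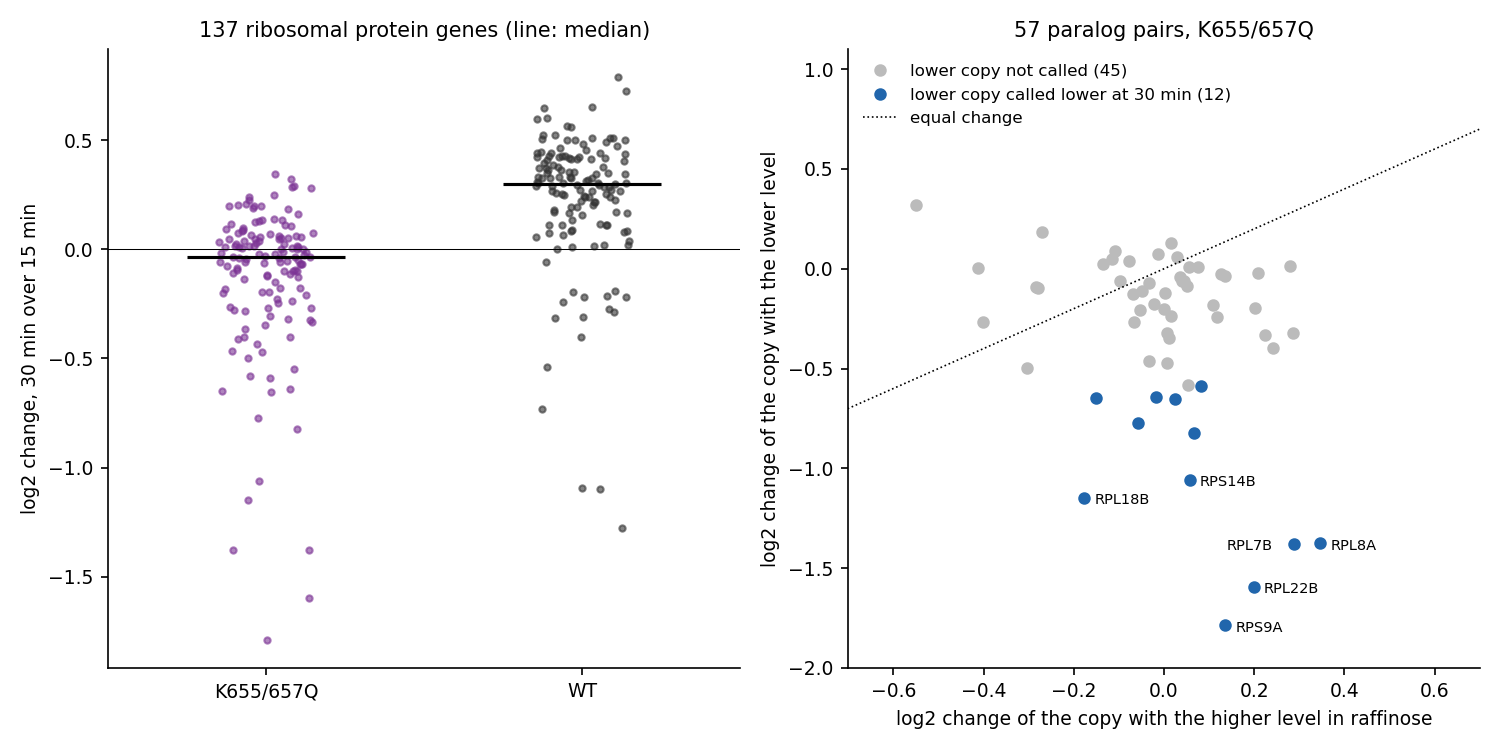
Left, log2 change between 30 and 15 min of 137 RP genes in K655/657Q and in WT, 1 point per gene, with medians of -0.04 and 0.30 as lines. Right, 57 paralog pairs in K655/657Q, the change of the copy lower in raffinose (y axis) against that of its partner (x axis), where the 12 called copies lie far under the dotted line of equal change.

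The same step was next set beside WT. In WT 551 genes (8.66% of 6363) were called, 185 higher (2.91%) and 366 lower (5.75%) at 30 min, and 350 genes were called in the same direction in both strains, 64.5% of the 543 called in K655/657Q and 63.5% of the 551 called in WT, with none called in opposite directions. The comparisons share no library. Across 6363 genes, which are not independent, the changes had a Pearson correlation of 0.812. The test of the difference itself (K655/657Q minus WT) called 33 genes, 11 above 0 and 22 below, or 0.519% of those tested. That count was 0 with the 8 compared libraries alone or with all 24 libraries, where 808 and 316 genes had an unadjusted p under 0.05, against 855 in the fit used here.

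The genes of stress and of purine synthesis named here, which fell further in K655/657Q, had a higher 15 min mean there than in WT. They were picked by the difference between strains, into which the 15 min means enter, so this describes the picked genes only. SHM2 (difference -0.71) had 215.2 and 233.4 scaled TPM at 30 min and 1348 and 1517 at 15 min in K655/657Q, and 243.9 and 292.5 at 30 min and 997.1 and 1087 at 15 min in WT. The difference was -0.79 for ADE17, -0.78 for HSP26, -0.82 for TFS1 and -0.95 for FMP16, whose 15 min means were 373.7, 86.8, 91.3 and 70.7 in K655/657Q and 281.7, 31.6, 43.9 and 33.9 in WT. GDH1 (-0.77) and ACO1, aconitase (-0.84), were called lower in K655/657Q and not in WT. GDH1 was lower at 30 min in WT too, with a log2 change of -0.57 (limma adjusted p = 0.00033), just short of 1.5-fold. ACO1 had 32.6 and 35.4 at 30 min and 56.6 and 52.9 at 15 min in K655/657Q, and 48.9 and 35.4 at 30 min and 35.0 and 38.7 at 15 min in WT. SED1, an abundant wall protein, was called higher in WT alone, and had 2013 and 2174 at 30 min and 1332 and 1518 at 15 min in K655/657Q, and 1975 and 1974 at 30 min and 772.9 and 762.7 at 15 min in WT (difference -0.81, standard error 0.095, adjusted p = 0.003). Higher in K655/657Q than in WT was the change of YKL165C-A (1.24), ECM13 (1.02), the copper transporter CTR1 (0.92) and the methylenetetrahydrofolate reductase MET13 (0.84). None of these was called in K655/657Q. ECM13 and CTR1 were lower at 30 min in both strains, by less in K655/657Q (-0.23 and -0.42) than in WT (-1.26 and -1.34). YKL165C-A, which is absent from the reference annotation, was at 0.45 in K655/657Q and -0.80 in WT. MET13 had 7.60 and 8.16 at 30 min and 8.08 and 9.13 at 15 min in K655/657Q, and 10.5 and 9.63 at 30 min and 21.3 and 19.4 at 15 min in WT.

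RP genes differed between the strains in a common direction. Their median change was -0.04 in K655/657Q and 0.30 in WT, and the difference was below 0 for all 137, with a median of -0.35, while 50.3% of all tested genes lay below 0. Of these, 5 passed the call for the difference, RPS22B (-0.75), RPS14B (-0.75), RPL18B (-0.74), RPL31B (-0.66) and RPL8A (-0.64). The mean level of the list, on the log2 scale, was 10.5 and 10.6 at 30 min and 10.7 in both libraries at 15 min in K655/657Q, and 11.0 and 11.1 at 30 min and 10.9 and 10.7 at 15 min in WT. The WT libraries at 15 min spread most of these 4 groups (SD 0.13), and the median difference was -0.44 without WT 15 min replicate 1 and -0.25 without replicate 2. On TPM as deposited it was -0.14, below 0 for 127 genes, while the median of all genes lay at 0.19. Across 5798 genes the difference followed coding length with a Spearman correlation of 0.318, and RP genes are short and abundant. Among 456 other genes in the same range of coding length, 78 to 1164 bases, with at least 100 scaled TPM at 15 min, the median difference was -0.17 and 83.3% lay below 0. The part of length in the RP result was not tested.

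**Figure D4:**
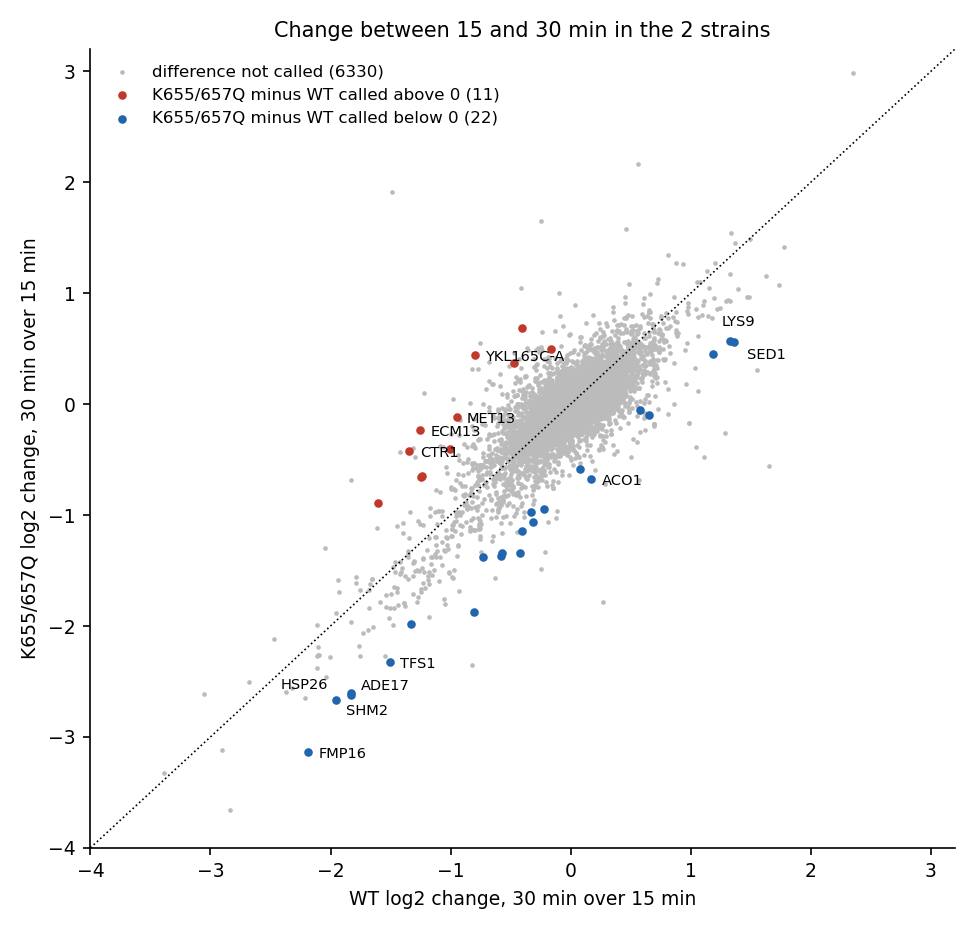
Log2 change between 30 and 15 min in K655/657Q (y axis) against WT (x axis) for 6363 genes, with 11 genes whose difference was called above 0 in red and 22 below 0 in blue. Most genes lie near the dotted line of equal change (Pearson correlation 0.812).

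Other motifs were searched in the same upstream window for lists that moved, as descriptions of the lists. AGGGG, the stress response element, was found in 33 of 43 general stress genes, 21 of the 22 that fell among them, in 45.5% of all genes called lower, in 41.3% of all called higher and in 29.6% of all tested genes. GATAAG, of the GATA factors, was in 20 of 24 nitrogen genes, 9 of the 10 that fell among them, and in 18.3% of all. TGCACCC, of the iron regulator Aft1, was in 21 of 31 iron and copper genes, 10 of the 11 that fell among them, and in 2.04% of all. CCAAT, of the Hap complex, was in 32 of 36 respiratory genes, 31 of the 33 that fell among them, and in 55.8% of all. The heat shock element was in 13 of 30 chaperone genes, 7 of the 11 that rose among them, and in 1.38% of all. The RiBi motifs AAAATTTT and GCGATGAG were in 59 and 30 of 86 pre-60S genes, of which 1 was called, and in 10.8% and 3.92% of all. Among all 374 genes called lower with a window, they were in 7.75% and 2.94%.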

How the data were processed

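Per the labels and the study's methods, the authors made directional poly(A) libraries, trimmed reads with fastp 0.23.2, quantified transcripts with kallisto 0.48.0 (R64 build) and deposited TPM, without counts, so depth is unknown. These deposited values were scaled by size factors (medians of ratios), log2-transformed after adding 1, and fitted in R 4.3.3 with limma 3.58.1 (trend) over 23 libraries, 1 mean per strain and condition, with 11 residual degrees of freedom. The second K655/657R library at 30 min was left out, as in the study. Tests covered genes averaging 1 TPM or more over all 24 libraries, and a call needed a 1.5-fold change at an adjusted p under 0.05. With 2 against 2 libraries an exact permutation test cannot go below p = 0.333. Named genes were the 12 largest non-overlapping rises and falls at a mean TPM of at least 10, up to 3 per list, 4 differences between strains in each direction, markers and genes named by the study, plus others chosen after their values were seen, such as further called list members, RP copies and TPS1. A withheld item is not reported here. The members and lists were chosen with earlier results of these data known. Tables were made with pandas 2.3.3 and figures with matplotlib 3.10.9.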

Additional observations from a re-analysis of the deposited data

Results flagged for a closer look

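The test of K655/657Q minus WT over the step between 30 and 15 min called 33 genes. Those of the 33 that are named had these differences on the log2 scale. Below 0 were FMP16 at -0.95, ACO1 at -0.84, TFS1 at -0.82, SED1 at -0.81, ADE17 at -0.79, HSP26 at -0.78, GDH1 at -0.77, LYS9 at -0.76, MFA2, an a-factor gene, at -0.73, SHM2 at -0.71, MET6 at -0.65 and the RP genes RPS22B and RPS14B at -0.75, RPL18B at -0.74, RPL31B at -0.66 and RPL8A at -0.64. Above 0 were YKL165C-A at 1.24, ECM13 at 1.02, CTR1 at 0.92, MET13 at 0.84 and ENO1, an enolase, at 0.72. All were picked out because the change over time differed between the strains, and none of these calls holds in the fits with the 8 compared libraries or with all 24.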

How the results depend on the processing

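The count of genes called in K655/657Q kept within 1.5 times of 543 under every alternative to the pseudocount, filter, scaling, libraries and trend. It was 1946 with an adjusted p alone and 217 at a fold change of at least 2, and lay between 532 and 585 without any 1 of the 4 libraries. With a pseudocount of 5, 65 genes were called higher. In WT the count of 551 was 2218 with an adjusted p alone and 189 at a fold change of at least 2. The 33 calls of K655/657Q minus WT were 66 on TPM as deposited, 12 under ACT1 scaling, 0 with only the compared libraries, 0 with all 24, 55 with an adjusted p alone, 4 at a fold change of at least 2, and between 10 (without K655/657Q 30 min replicate 1) and 52 (without WT 15 min replicate 1) with 1 library left out. The median RP difference of -0.35 was -0.14 on TPM as deposited and -0.24 under ACT1 scaling, and between -0.44 and -0.25 without 1 library. The WT libraries were left out as alternatives chosen after seeing the data. The cause of these shifts was not tested. With the replicate number as a block, 547 genes were called in K655/657Q and 38 for the difference, and no named gene changed its call. Replicate differences correlated at 0.252 between the 2 times in K655/657Q and -0.194 in WT, with 2 pairs each, so the numbers are not shown to pair the libraries. Of the genes named, 10 lost their call under ACT1 scaling, 10 under upper-quartile scaling, 7 on TPM as deposited and 12 with a pseudocount of 5. No named gene reversed its direction while called. TPM keep no depth, so low values such as GAC1 carry an unknown counting error, and 2 libraries per group limit all tests.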

Other observations

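AGA2 and AGA1, the subunits of a-agglutinin, and SST2, which dampens pheromone signalling, were outside the lists and were chosen after their values were seen. AGA2 had 239.5 and 276.9 scaled TPM at 30 min and 129.0 and 147.5 at 15 min (log2 change 0.90, limma adjusted p = 1.9e-05), AGA1 was at 0.68 and SST2 at 0.67, and all 3 were called higher. None of the 6 markers of a-type cells was called. Their log2 changes were 0.49 for STE2, 0.47 for BAR1, 0.46 for MFA2, 0.35 for STE6, 0.21 for ASG7 and -0.07 for MFA1.

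TAR1, a reading frame antisense to ribosomal DNA on chromosome XII, and the IDs YLR154W-A and YLR154W-B were also chosen after their values were seen. TAR1 had 2289 and 2801 scaled TPM at 30 min and 1687 and 1193 at 15 min (log2 change 0.84, standard error 0.296, limma adjusted p = 0.044). YLR154W-A had 3157 and 4161 at 30 min and 2157 and 2031 at 15 min (0.79, standard error 0.199, limma adjusted p = 0.0072), and YLR154W-B was at 0.81 (standard error 0.244, limma adjusted p = 0.02). Replicates of the same time lay far apart for TAR1 at both times, and at 30 min for YLR154W-A and for YLR154W-B (2965 and 3871).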
